A study of Schizosaccharomyces pombe with 4 samples.

Results

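Ergosterol is the main sterol of fungal membranes and the counterpart of cholesterol in animal cells. Its synthesis starts where a pair of farnesyl diphosphate molecules is joined into squalene, which is then oxidised, folded into the ring system of lanosterol and trimmed, methylated and desaturated to give ergosterol. Several of these steps consume molecular oxygen, and in fission yeast the transcription factor Sre1, a homologue of the mammalian sterol regulatory element binding protein, raises genes of the pathway when sterols or oxygen run short. The 10 genes described here encode enzymes of this route from squalene synthase to the last reductase. They are erg9, erg1, erg7, erg11, erg24, erg25, erg6, erg31, erg5 and sts1, chosen by gene identifier as enzymes of the known pathway. The choice used no measured value as a criterion, but it was made with earlier results of these data known. All 10 were found in the table for 24°C, which lists 5143 genes.

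The libraries compared S. pombe fas S.j., in which the open reading frames of fas1 and fas2 are replaced by those of S. japonicus, with wild-type S. pombe. The 2 genes encode the subunits of the cytosolic fatty acid synthase, so the strains differ by design in the enzyme that makes fatty acids and not in a sterol enzyme. Per the methods of the study, the replaced frames sit between the native flanking regions and the strain carries the kanMX6 and hygR marker cassettes. The study lists its wild type as mating type h- and its prototrophic fas S.j. strain as h+. It does not state which strains were sequenced. It also reports that fas S.j. grew more slowly than wild type, most clearly at 24°C. Both strains were sampled in exponential growth, in rich YES medium, and at each of 24°C and 30°C a single poly(A) RNA library represents each strain, which makes 4 libraries.

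The values are FPKM, counts of sequenced fragments corrected for transcript length and library depth, so levels of different genes can be set side by side. Changes are given as log2 of (FPKM + 1 in fas S.j.) over (FPKM + 1 in wild type), and a gene was called past the fold when its change went beyond 0.8 in either direction. With 1 library per condition there is no replicate check and no test. A difference below is therefore between 2 libraries, and its only error is an approximate counting error. This is the standard error of the log2 ratio expected from the reads estimated for the gene in the 2 libraries. It leaves out variation between cultures. FPKM is relative to the whole library, so the amount of a transcript per cell was not measured. Total read counts are not given in the tables. Estimated from the steps between low values, 1 read at 24°C was worth 0.0955 FPKM in fas S.j. and 0.0755 FPKM in wild type, for an effective length of 1 kilobase, and the 10 genes were covered by an estimated 816 to 8439 reads in fas S.j. and 929 to 11654 reads in wild type.

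The values of fas1 and fas2 went with the replacement that the study describes, while the labels themselves say only wt and mutant. At 24°C fas1 stood at 7.35 FPKM in fas S.j. against 301 FPKM in wild type, and fas2 stood at 0.320 FPKM in fas S.j. against 336 FPKM in wild type. At 30°C fas1 stood at 16.6 FPKM in fas S.j. against 344 FPKM in wild type. Reads were mapped to the S. pombe genome, so these values do not give the expression of the S. japonicus frames.

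The enzymes fall into groups that share chemistry, and the sequences below are stretches shared within such groups. Erg11 and Erg5 are the cytochrome P450 enzymes of the pathway, in which a cysteine holds the haem iron. A stretch of codons reading phenylalanine, any 2 residues, glycine, any 3, cysteine, any 1 and glycine was found in the RefSeq coding sequences of both and in 15 of 5124 coding sequences in all, 0.293%. It starts at codon 435 of 495 in erg11 and at codon 454 of 543 in erg5. The cysteine codon is in capitals:
erg11: tttggagctggtcgtcatcgtTGCattggt
erg5: tttggtaatggtcctcatgtaTGTttgggc

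Erg25 and Erg31 belong to another group, membrane oxidases that hold iron with clusters of histidines. The box histidine, any 2 residues, histidine, histidine occurred in 72 of 5124 coding sequences, 1.41%. Each of erg25, erg31 and erg32 holds it at 2 places, erg32 being a second C-5 sterol desaturase gene. The first boxes start at codon 167 of 300 in erg25, codon 150 of 300 in erg31 and codon 183 of 329 in erg32, and the histidine codons are in capitals:
erg25, first box: CACaaagttCACCAC
erg25, second box: CACgattatCACCAT
erg31, first box: CACaaactcCATCAT
erg31, second box: CATaatggcCATCAC
erg32, first box: CATaagcttCATCAC
erg32, second box: CACgctgctCACCAT

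At 24°C the 10 genes summed to nearly the same level in both strains, though without erg5 the sum was 8.11% higher in fas S.j. The FPKM of the 10 genes summed to 2381 in fas S.j. and to 2361 in wild type, a difference of 0.838%. Of the 10 genes, 7 were higher and 3 were lower in fas S.j., with a median change of 0.10, beside a median of -0.0037, and 49.3% higher, over the 4943 genes whose FPKM averaged 1 or more. Over the 7 members that share their locus with no other gene the median was 0.02. None of the 10 went beyond 0.8 upwards, where 4.19% of those 4943 genes did, and none went beyond 0.8 downwards, where 2.08% did. With a limit of 0.25, erg1 was the 1 member past it upwards, beside 19.8% of the 4943 genes, and erg5 was the 1 member past it downwards, beside 14.3%. When changes were centred on the median of well-expressed genes or of genes nearest in level, erg31 also passed 0.25 upwards, at 0.254 and 0.272. The changes of all 10 lay between the 5th and 95th percentiles of those genes, -0.46 and 0.71.

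**Figure D1:**
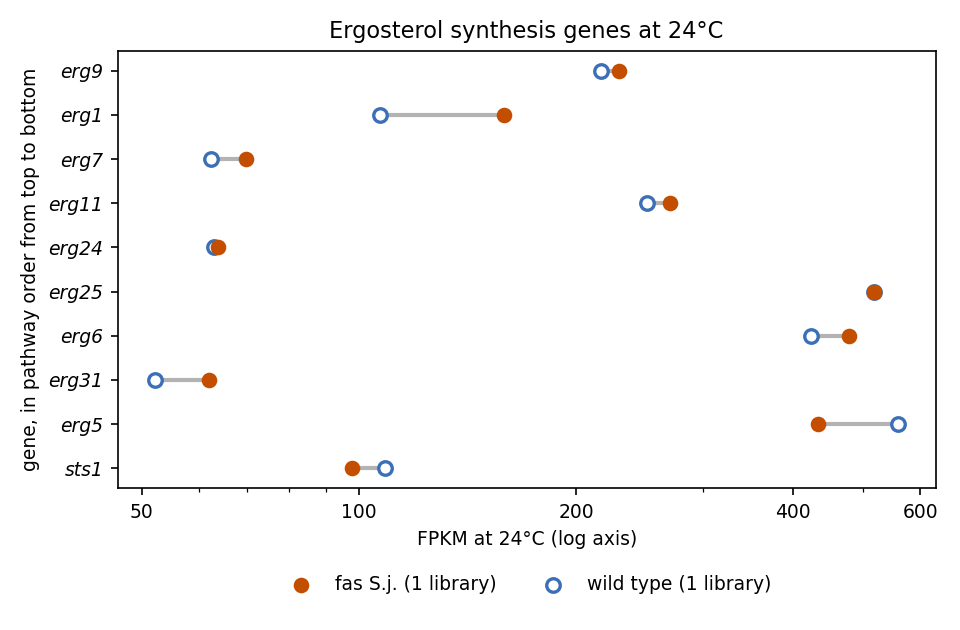
FPKM at 24°C (log axis) of the 10 ergosterol synthesis genes in pathway order, with 1 point per library for fas S.j. and for wild type and no error bar, since each strain has 1 library. The points of most genes nearly coincide, while erg1 is higher in fas S.j. (159 against 107 FPKM) and erg5 is lower (433 against 559 FPKM).

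The first steps make and oxidise squalene. The gene erg9 (SPBC646.05c, chromosome II, 931002 to 932472, in ASM294v3, as are all coordinates here) encodes squalene synthase, the first enzyme committed to sterols. It stood at 229.6 FPKM in fas S.j. and 217 FPKM in wild type, a change of 0.08 ± 0.04 (counting error). The gene erg1 (SPBC713.12, chromosome II, 892160 to 894361) encodes squalene monooxygenase, which adds the oxygen that the ring closure needs and is the target of terbinafine. It stood at 159 FPKM in fas S.j. and 107 FPKM in wild type. That is 48.2% higher in fas S.j., a change of 0.56 ± 0.04, and the largest among the 10. Its change lay at percentile 92.7 of all genes. The gene erg7 (SPAC13G7.01c, chromosome I, 2292636 to 2295282) encodes lanosterol synthase, which folds the epoxide into the sterol rings. It stood at 69.7 FPKM in fas S.j. and 62.5 FPKM in wild type, a change of 0.16 ± 0.05. The gene after erg1 in the pathway thus shared its sign but not its size.

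The next enzymes remove the methyl groups of lanosterol. The gene erg11 (SPAC13A11.02c, chromosome I, 574652 to 577153) encodes the P450 that removes the first of them, the target of azole antifungals. It stood at 270.3 FPKM in fas S.j. and 251 FPKM in wild type, a change of 0.11 ± 0.02. The gene erg24 (SPBC16G5.18, chromosome II, 4250013 to 4251433) encodes the reductase that acts on the product of Erg11. It stood at 63.8 FPKM in fas S.j. and 63.1 FPKM in wild type, a change of 0.02 ± 0.07. The gene erg25 (SPAC630.08c, chromosome I, 359638 to 361317) encodes the oxidase that starts the removal of the remaining methyl groups. It stood at 517.1 FPKM in fas S.j. and 517.3 FPKM in wild type, a change of -0.00075 ± 0.02. The smallest changes among the 10 were those of erg24 and erg25, which act at adjacent steps. Of the 10, these were the 2 within 2 counting errors of 0. The share of all genes within 2 counting errors was not computed, so this count shows nothing particular to the members.

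The last enzymes finish the side chain and the ring. The gene erg6 (SPBC16E9.05, chromosome II, 1923510 to 1925394) encodes the methyltransferase that gives ergosterol a side-chain methyl group that cholesterol lacks. It stood at 478 FPKM in fas S.j. and 423 FPKM in wild type, a change of 0.18 ± 0.02. The gene erg31 (SPAC1687.16c, chromosome I, 932425 to 933968) encodes a C-5 sterol desaturase, which introduces a ring double bond. It stood at 62.0 FPKM in fas S.j. and 52.2 FPKM in wild type, a change of 0.24 ± 0.07, just inside the limit of 0.25 as computed here and just outside it after either centring.

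The gene erg5 (SPAC19A8.04, chromosome I, 2480065 to 2482169) encodes the second P450, which introduces the side-chain double bond. It stood at 433 FPKM in fas S.j. and 559 FPKM in wild type. The difference was -22.6% of the wild-type level, a change of -0.37 ± 0.02, at percentile 7.18 of all genes. The gene sts1 (SPAC20G4.07c, chromosome I, 4826601 to 4828192, listed as erg4 in the annotation) encodes the reductase of the final step. It stood at 97.8 FPKM in fas S.j. and 109 FPKM in wild type, a change of -0.15 ± 0.05. Apart from erg25, whose difference was -0.270 FPKM, the lower members were thus erg5 and sts1, which act on the side chain at the end of the route.

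Without erg5 the other 9 genes summed to 1947 FPKM in fas S.j. and 1801 FPKM in wild type, 8.11% higher in fas S.j. The 2 P450 genes together stood at 703 FPKM in fas S.j. and 809.9 FPKM in wild type, although erg11 itself was higher in fas S.j. by 0.11 on the log2 scale.

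Levels within the pathway spanned 8.35-fold in fas S.j. and 10.7-fold in wild type, on the FPKM scale. In fas S.j. the order ran from erg25 at 517.1 FPKM through erg6, erg5, erg11, erg9, erg1, sts1, erg7 and erg24 to erg31 at 62.0 FPKM. In wild type it ran from erg5 at 559 FPKM through erg25, erg6, erg11, erg9, sts1, erg1, erg24 and erg7 to erg31 at 52.2 FPKM. At the top, erg5 was the third in fas S.j. and the first in wild type, and in the middle erg1 stood above sts1 in fas S.j. and below it in wild type. The exchange of erg7 and erg24 rests on levels of 62.5 and 63.1 FPKM in wild type, and without replicates it cannot be said which neighbours in either order differ. The lowest member lay at percentile 64.6 of all genes in fas S.j., against 58.7 in wild type, so all 10 were expressed above the median gene in both strains.

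Members that use oxygen and members that do not had similar medians. The oxygen-using enzymes are those of erg1, erg11, erg25, erg31 and erg5, and their genes had a median change of 0.11, with 3 of 5 higher in fas S.j. The other 5 had a median change of 0.08, with 4 of 5 higher, beside 49.3% of all genes. The oxygen-using genes held both extremes, 0.56 for erg1 and -0.37 for erg5, while the others lay between -0.15 and 0.18.

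**Figure D2:**
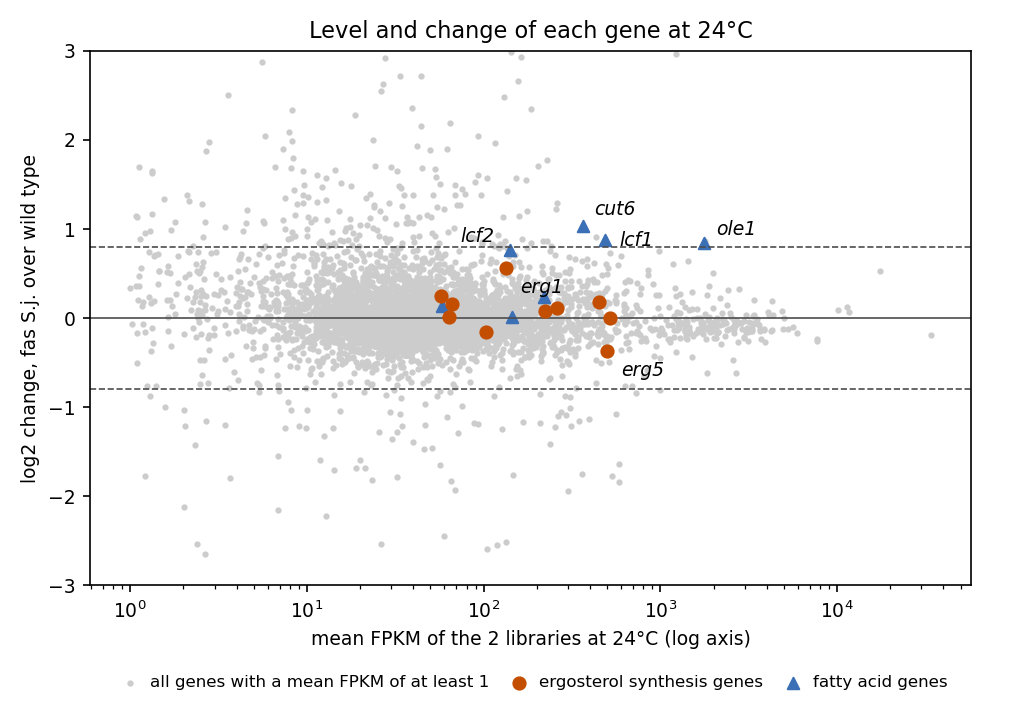
Log2 change at 24°C (fas S.j. over wild type) against the mean FPKM of both libraries (log axis), for 4920 of the 4943 genes whose FPKM averaged 1 or more, the other 23 lying beyond the axis. The 10 ergosterol synthesis genes (circles) lie inside the dashed lines at 0.8 and -0.8, whereas cut6, ole1 and lcf1 of the fatty acid genes (triangles) lie above the upper line.

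The C-5 desaturase step has a pair of genes, and their changes had opposite signs. Unlike erg31, erg32 shares its locus with another gene, so its reads may be split between transcripts. No counting error was estimated for erg32. erg32 stood at 110.1 FPKM in fas S.j. and 133 FPKM in wild type, a change of -0.27, where that of erg31 was 0.24. The pair summed to 172 FPKM in fas S.j. and 185 FPKM in wild type, a difference of -6.93%, and erg31 made up 36.0% of it in fas S.j., against 28.2% in wild type. Their coding sequences were 64.4% identical over 887 aligned bases with a longest shared run of 15 bases, and each stretch of 50 bases within an exon of either gene occurred once in the genome. The same held for the exons of the other 9 members, while stretches across the splice junctions of erg7 and erg5 were not checked.

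Beside erg32, the other late sterol genes were erg26 and erg27, which work with Erg25, erg28, known in budding yeast as a scaffold for that complex, and erg2, a sterol isomerase. Of these 5, none went beyond 0.8, 2 were higher and 3 were lower, where 49.3% of all genes were higher. Their median change was -0.066. erg28 stood at 178 FPKM in fas S.j. and 115 FPKM in wild type, a change of 0.63, which was larger than that of any of the 10 members. Like erg32, it shares its locus with another gene. erg26 stood at 199 FPKM in fas S.j. and 166 FPKM in wild type, a change of 0.26. erg27 stood at 51.3 FPKM in fas S.j. and 55.7 FPKM in wild type, and erg2 at 147 FPKM in fas S.j. and 154 FPKM in wild type. Among the genes that work with erg25, the changes thus spanned -0.12 (erg27) to 0.63 (erg28) beside -0.00075 for erg25 itself.

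Upstream of squalene lie the genes that make mevalonate and the prenyl diphosphates. Of 9 genes, 8 were higher and 1 was lower, with a median change of 0.18 and none beyond 0.8. Of these, 3 went beyond 0.25 upwards, where 19.8% of all genes did and 49.3% were higher. In this list hmg1, erg8, mvd1, idi1, fps1 and spo9 share their locus with other genes. No median was taken without them. hmg1, which encodes HMG-CoA reductase, the step on which statins act, stood at 101 FPKM in fas S.j. and 77.1 FPKM in wild type, a change of 0.39. erg12, for mevalonate kinase, stood at 95.9 FPKM in fas S.j. and 77.7 FPKM in wild type, a change of 0.30. erg10, for the thiolase that opens the route, stood at 496 FPKM in fas S.j. and 408 FPKM in wild type, a change of 0.28. The farnesyl diphosphate synthase gene fps1, which supplies Erg9, stood at 311 FPKM in fas S.j. and 275 FPKM in wild type, a change of 0.18. The lower gene was spo9, for a prenyl diphosphate synthase, at 21.1 FPKM in fas S.j. and 22.3 FPKM in wild type.

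The genes of the Sre1 pathway had changes of both signs. Of 13 genes, 8 were higher and 5 were lower, where 49.3% of all genes were higher. Their median change was 0.038 and none went beyond 0.8. sre1 itself stood at 48.3 FPKM in fas S.j. and 58.7 FPKM in wild type, a change of -0.28. scp1, for the sterol-sensing partner that holds Sre1 in the endoplasmic reticulum, stood at 89.7 FPKM in fas S.j. and 60.9 FPKM in wild type, a change of 0.55. rbd2, for a rhomboid protease that takes part in Sre1 cleavage, stood at 38.4 FPKM in fas S.j. and 27.2 FPKM in wild type, a change of 0.48. nro1, for an inhibitor of the oxygen sensor Ofd1, stood at 215 FPKM in fas S.j. and 175 FPKM in wild type, a change of 0.29. The genes dsc1 to dsc5 encode the Golgi ligase complex required for that cleavage, and they changed by between -0.13 (dsc4) and 0.24 (dsc5). Transcript levels do not show whether Sre1 was cleaved.

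The partners that bring haem and electrons to the oxygen-using enzymes were mostly lower. Of 5 genes, 4 were lower and 1 was higher, where 49.3% of all genes were higher. Their median change was -0.13 and none went beyond 0.8. Only 1, dap1, went beyond 0.25 downwards, where 14.3% of all genes did. ccr1, for the P450 reductase that serves both Erg11 and Erg5, stood at 128 FPKM in fas S.j. and 134 FPKM in wild type. hem13 stood at 136 FPKM in fas S.j. and 149 FPKM in wild type, a change of -0.13. Like cbr1, it shares its locus with another gene. dap1, for a haem protein that binds P450 enzymes of the pathway, stood at 79.5 FPKM in fas S.j. and 96.3 FPKM in wild type, a change of -0.27. cbr1, for cytochrome b5 reductase, stood at 116 FPKM in fas S.j. and 136 FPKM in wild type, a change of -0.23. The higher gene was oca8, for cytochrome b5, at 391 FPKM in fas S.j. and 336 FPKM in wild type.

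Downstream of the pathway, genes for sterol esters and sterol transport numbered 9 in the table. Of these, 7 were higher, where 49.3% of all genes were, with a median change of 0.23. The acyltransferase genes that store sterols as esters went opposite ways, are1 at 18.5 FPKM in fas S.j. and 22.0 FPKM in wild type, and are2 at 42.3 FPKM in fas S.j. and 33.6 FPKM in wild type. Beyond 0.8, where 4.19% of all genes lay, was 1 gene of the list, SPAC23H4.01c, for an oxysterol-binding protein of the sterol transfer family. It stood at 141 FPKM in fas S.j. and 53.1 FPKM in wild type, a change of 1.39. It was known to be among the genes the study listed as changed when the list was drawn up, so it is no independent sign of the direction of the list.

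Fatty acid genes, the other arm of membrane lipid synthesis, are set beside the sterol genes. The list includes mga2, which encodes a transcription factor and not an enzyme. Of 7 fatty acid genes, all 7 were higher in fas S.j. and 3 went beyond 0.8, where 49.3% and 4.19% of all genes did so. Their median change was 0.76, against 0.10 for the 10 ergosterol genes. The 7 ergosterol genes alone in their locus had a median of 0.02. The fatty acid genes were not limited in that way, and cut6 shares its locus, so 0.76 and 0.02 are not like for like. cut6, for acetyl-CoA carboxylase, stood at 493 FPKM in fas S.j. and 239.6 FPKM in wild type, a change of 1.04. lcf1, for a fatty acyl-CoA ligase, stood at 629.9 FPKM in fas S.j. and 342 FPKM in wild type, a change of 0.88. ole1, for the fatty acid desaturase, stood at 2267 FPKM in fas S.j. and 1264 FPKM in wild type, a change of 0.84. The change of erg1 was below those of these 3 genes and of lcf2, and above those of elo1, elo2 and mga2. With no replicates the difference between the lists was not tested, and several of the fatty acid genes were already known to be higher in fas S.j. in these libraries.

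**Figure D3:**
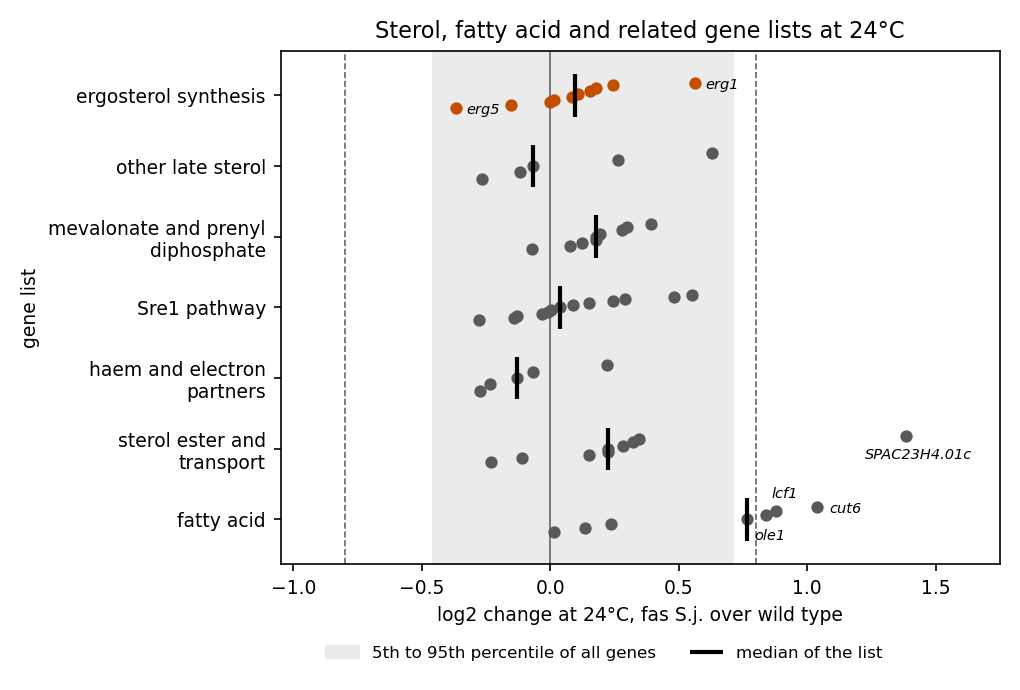
Log2 change at 24°C (fas S.j. over wild type) of each gene in 7 lists, with the list median as a bar, the 5th to 95th percentile of all genes shaded (-0.46 to 0.71) and dashed lines at 0.8 and -0.8. The ergosterol synthesis genes span -0.37 (erg5) to 0.56 (erg1) around a median of 0.10, while the fatty acid genes have a median of 0.76.

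At 30°C none of the 10 genes could be compared. The table for that temperature that was analysed lists 285 genes, all lower in fas S.j. with a log2 ratio of -0.500257 or below, and it lists none of the 10. Their values at 30°C were not analysed here. Of the 48 genes in the other lists, 2 appear in it. dsc4 stood at 32.0 FPKM in fas S.j. and 48.5 FPKM in wild type at 30°C, and at 28.8 FPKM in fas S.j. and 31.6 FPKM in wild type at 24°C. cbr1 stood at 99.7 FPKM in fas S.j. and 150.1 FPKM in wild type at 30°C, and its values at 24°C are given above. Since the table holds falls beyond a set size only, the 2 temperatures cannot be compared from it.

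Position and gene structure played no part in the choice of members. 6 lie on chromosome I and 4 on chromosome II, and 7 lie on the reverse strand. The shares of all genes by chromosome and strand were not computed. On chromosome II erg1 ends at 894361 and erg9 starts at 931002, and whether members lie closer together than other genes was not tested. 8 of the 10 have no intron, beside 51.7% of 5074 genes with a gene model, the exceptions being erg7 with 4 exons and erg5 with 2. Cuffdiff gave 7 members a locus of their own, beside 45.9% of all genes, and placed erg9, erg7 and erg6 in a locus shared with other genes, where reads may be split between overlapping transcripts. Genes of the other lists share loci too, among them erg32, erg28, hmg1, fps1, scp1, rbd2 and cut6. The changes of the neighbours of erg9, erg7 and erg6 ran both ways. pla1, beside erg9, stood at 49.0 FPKM in fas S.j. and 57.2 FPKM in wild type, and SPAC4G9.22, beside erg7, stood at 129 FPKM in fas S.j. and 194 FPKM in wild type. Beside erg6, coa1 had a change of -0.39, uvi31 of 0.08 and pac3 of 0.77, the last at 9.61 FPKM in fas S.j. and 5.22 FPKM in wild type.

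Of the 4 motifs searched around the start sites, none occurred in all 10 members. In the RefSeq promoters, 250 bases before to 50 bases after the annotated start, CACGTG was found in 0 of the 10, beside 1.48% of 5123 promoters, and TCACCCCAC in 0 of the 10, beside 0.0390%, counting both strands. CCAAT was found in 5 of the 10, beside 42.3% of all promoters, and TATAAA in 5 of the 10, beside 48.1%. Some of these sites lie after the start site. The only CCAAT of erg5 is at 1 and the only TATAAA of erg9 at 22. The only CCAAT of erg31 is at 40, inside its coding sequence, since its leader is 14 bases long. Both shares of the members are close to those of all promoters. Sites of erg1, the member with the largest change, and of erg11, whose promoter holds CCAAT at -201, -189 and -126, are shown, for erg11 only the site nearest the start, with the motif in capitals and its position from the start site. ATTGG is CCAAT read on the other strand, and letters say nothing of which factor binds:
erg1, TATAAA at -34: gtcttgtcgaccTATAAAatcaccaaagtt
erg1, CCAAT at -146: tttgagccgttgATTGGctacttttattt
erg11, CCAAT at -126: ctgaaaaatatgATTGGataaaaaagtgt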

How the data were processed

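Per the labels and the methods of the study, the authors made poly(A) libraries, mapped single-end reads with TopHat and ran Cuffdiff between strains. The FPKM values deposited by the authors come from that Cuffdiff run. Tool versions, genome build and the library scaling are not given in the sources used here. The sources name different Illumina instruments and read lengths, and whether strand was used in counting is not stated. The authors' log2 fold changes, test statistics, p-values and q-values were not used.

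Here the change was log2 of the ratio of FPKM + 1, within a temperature, since each table was normalized separately. Medians and percentages of all genes used the 4943 of 5143 genes whose FPKM averaged 1 or more. All 10 members passed. At 24°C 106 genes are listed at 0 in both libraries. The fold limit of 0.8 is the fold part of the study's criteria. The members, gene lists and alternatives were chosen with earlier results of these data known. All members and all genes of the lists were eligible to be named, and ncr1 of the transport list was not matched and was not analysed.

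Depth was estimated from low FPKM values times the gene length less 200 bases, an offset chosen after seeing the values. Of 27 values in fas S.j. 81.5%, and of 40 in wild type 80.0%, lay within 0.15 steps of a whole multiple, so counting errors are approximate. Of the gene identifiers, 5106 matched ASM294v3 (RefSeq), which gave names, coordinates and sequences. Tools were Python 3.11.15 with pandas 2.3.3, numpy 2.4.6, matplotlib 3.10.9 and scipy 1.17.1, and scripts were tested on simulated data.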

Additional observations from a re-analysis of the deposited data

How the results depend on the processing

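The median change of the members was between 0.02 and 0.11 under the alternatives that could alter it (adding 0.1 in place of 1, centring on the median of well-expressed genes at 10 FPKM or more, centring on the genes nearest in level, and members alone in their locus). No minimum level, or one of 10 FPKM, could not alter it, since all members lie above 50 FPKM. The 0.02 comes from leaving out erg9, erg7 and erg6. Over 30 values, a member shifted by between -0.019 and 0.039. The sign of erg25 turned in 2 of them, to 0.010 and 0.039 under the 2 centrings, from a change of -0.00075. The count of members past the limit was 0 at 0.8, and 1 was higher at 0.5 and 1 at 0.25, erg1 in both, and 1 was lower at 0.25, erg5. At 0.25 either centring added erg31, at 0.254 and 0.272, against 0.243 without centring. No paired analysis was possible because the members are listed at 24°C only, where each strain has 1 library. For the same reason no library could be left out. The lack of replicates, and the 30°C table without the members, limit every value above.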
